A study of Mus musculus with 4 samples.

Results

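The 80 nuclear genes for subunits of respiratory chain complexes I, III and IV and of ATP synthase (complex V) were followed in single nuclei of the mouse brain. Members were the genes whose symbols start with Nduf plus a subunit letter and number, Uqcr, Cox4 to Cox8 or Atp5, without names containing "-ps", and they were 80 of 32286 features. Complex I held 35 members, complex III 8, complex IV 20 and complex V 17, with Ndufa4 and its relative Ndufa4l2 counted with complex IV, where the Ndufa4 protein is found. Nuclei came from snap-frozen hemispheres of untreated C57BL/6 mice at postnatal day 14. The 2 WT libraries carry the genotype Slc17a6-Cre, Ago2 wt/wt, and the 2 libraries labelled Ago2 KO carry Slc17a6-Cre, Ago2 flox/flox. Both groups thus carry the Cre allele, which acts in neurons that express the glutamate transporter VGLUT2, and whose activity in each class was not measured. P-values here set the difference between the groups against the spread between libraries of a group. Separate animals are not named for the libraries, so that spread may be only technical.

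Respiratory complexes sit in the inner mitochondrial membrane. Complex I oxidises NADH, complex III passes electrons from ubiquinol to cytochrome c, complex IV reduces oxygen, and ATP synthase uses the resulting proton gradient to make ATP. Their subunits are split between nuclear genes, which are transcribed in the nucleus and translated in the cytosol, and mitochondrially encoded genes, whose transcripts do not pass through the nucleus. Neurons depend on this pathway for the ATP that drives ion pumps, and isoforms of some subunits are restricted to certain tissues.

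WT replicates 1 and 2 held 13107920 and 29317266 UMIs (unique molecular identifiers, each counting 1 captured RNA molecule), and KO replicates 1 and 2 held 10845009 and 11439733. After filtering, 3255 and 5856 WT nuclei and 3226 and 3174 KO nuclei remained, with medians of 2315 to 3087 UMIs. WT replicate 1 stood apart in mitochondrial RNA: its median nucleus had 0.506% mitochondrially encoded UMIs, against 0.123% to 0.151% in the other libraries. Before filtering, 37 cell barcodes occurred in more than 1 library, and 30 of these were among the kept nuclei. Ago2 itself was at 74.0 and 82.3 CPM (UMIs of a gene scaled to a common library total) in WT and 88.5 and 91.8 in the KO-labelled libraries over all nuclei, and at 74.5 and 79.9 against 108 and 105 in glutamatergic nuclei. Ago2 was thus not lower in the libraries labelled KO, but the deleted exons are not named and counts from outside them check nothing. Clusters were named from marker lists, so each class name below means nuclei like that type, and 24.6% of nuclei stayed in clusters without a name. Cerebellar granule neurons were among the named classes, although the design text speaks of cortical cells.

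Over all nuclei, the 80 genes made up a smaller share of the RNA in both libraries labelled KO than in both WT libraries. Their summed UMIs were 0.200% and 0.164% of all UMIs in WT replicates 1 and 2, and 0.141% and 0.137% in KO replicates 1 and 2. The groups did not overlap, and the KO mean was 0.764 times the WT mean (0.139% ± 0.0031 against 0.182% ± 0.0255; SD, n = 2 libraries each). With 2 libraries against 2, the smallest p that an exact two-sided permutation test can give is 0.33, so this share cannot pass a threshold of 0.05. In a sum over all nuclei, fewer cells of a type and less RNA per cell cannot be told apart. The order of the groups was the same for each complex. The KO to WT ratio was 0.853 for complex I, 0.788 for complex III, 0.628 for complex IV and 0.760 for complex V.

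RNA of cytosolic ribosomal protein genes, which are also short and abundantly expressed, moved in the same direction. Their share was 0.240% and 0.183% in WT and 0.128% and 0.130% in KO libraries, a ratio of 0.610. Mitochondrially encoded genes took 0.731% and 0.2495% in WT and 0.2995% and 0.298% in KO libraries, so these groups overlapped and WT replicate 1 alone was high. The part of either quantity in the lower share of the respiratory chain genes was not tested.

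**Figure D1:**
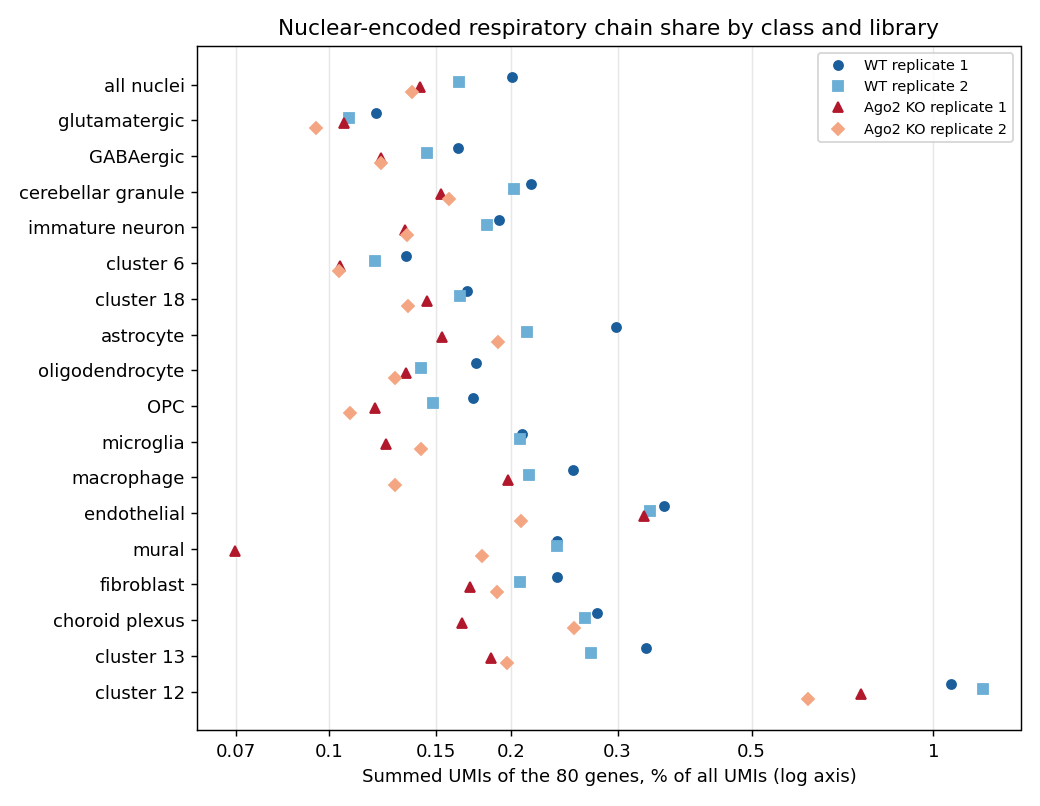
Summed UMIs of the 80 nuclear-encoded respiratory chain genes as a percentage of all UMIs (x axis, log scale), for all nuclei and for each class or unnamed cluster by number (y axis). Each point is 1 library. Both KO-labelled libraries lie left of both WT libraries in all rows, and cluster 12 lies far to the right of the other classes.

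By member, 76 of the 80 genes had enough counts over all nuclei to be tested with edgeR, and none passed the adjusted threshold of 0.05. That threshold was passed by 0 of 17034 genes in all (0%), whereas 1001 genes had an unadjusted p under 0.05. Log2 changes (KO relative to WT) were negative for 71 of the 76, against 51.3% of all genes tested. Their median was -0.53, beside -0.01 for all genes. For 58 of the 76, both KO libraries lay below both WT libraries, against 14.6% of all genes tested. An unadjusted p under 0.05 with lower KO values was reached by 41, against 2.91% of all genes. The filter keeps a gene that is well counted in at least 2 libraries, so these counts describe the members that passed it. DESeq2, the alternative count model, called 3 members lower (Cox8a, Uqcr11 and Cox4i1) among 41 genes called in all.

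Complex I had the KO to WT ratio nearest to 1, and within it the core subunits lay nearer to no difference than the accessory ones. Members also differ in gene span, described below, and its part in this and the later divisions by role was not tested. Of the 7 nuclear core subunits, which carry the flavin, the iron-sulfur clusters and the quinone site, 5 had negative log2 changes with a median of -0.16. Ndufs1, the large iron-sulfur subunit, was at 87.7 and 79.4 CPM in WT and at 93.7 and 78.3 in KO libraries (log2 change 0.02, SE 0.13). These groups overlapped fully. Ndufv2, an iron-sulfur subunit of the NADH-oxidising arm, was at 39.0, 34.9, 40.9 and 34.7 CPM in the same order of libraries (0.01, SE 0.14). Ndufv1, its flavin-binding partner, had the most negative value of the core, at 12.8 and 12.6 CPM in WT and 7.94 and 8.49 in KO libraries (-0.65, SE 0.20, edgeR adjusted p = 0.626).

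Accessory subunits of complex I surround the core and are needed for assembly and stability. All 28 were tested, 27 had negative log2 changes, and the median was -0.50. Ndufb9 had the most negative value, with 23.7 and 14.5 CPM in WT and 10.3 and 8.01 in KO libraries (-1.06, SE 0.26, edgeR adjusted p = 0.447). Ndufb8 was at 20.9 and 17.2 CPM in WT and 11.8 and 10.1 in KO libraries (-0.82, SE 0.19, adjusted p = 0.418 by edgeR). Both members kept KO below WT in every library. Ndufs4, an accessory subunit whose loss causes a mitochondrial brain disease in mice, was the member with the most UMIs, 6056 in all. Its levels of 113, 106, 99.5 and 106 CPM overlapped between groups (-0.11, SE 0.11). Ndufa9 was the exception in sign, at 17.7 and 17.0 CPM in WT and 25.3 and 17.6 in KO libraries (0.28, SE 0.20), and KO replicate 1 alone stood high.

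**Figure D2:**
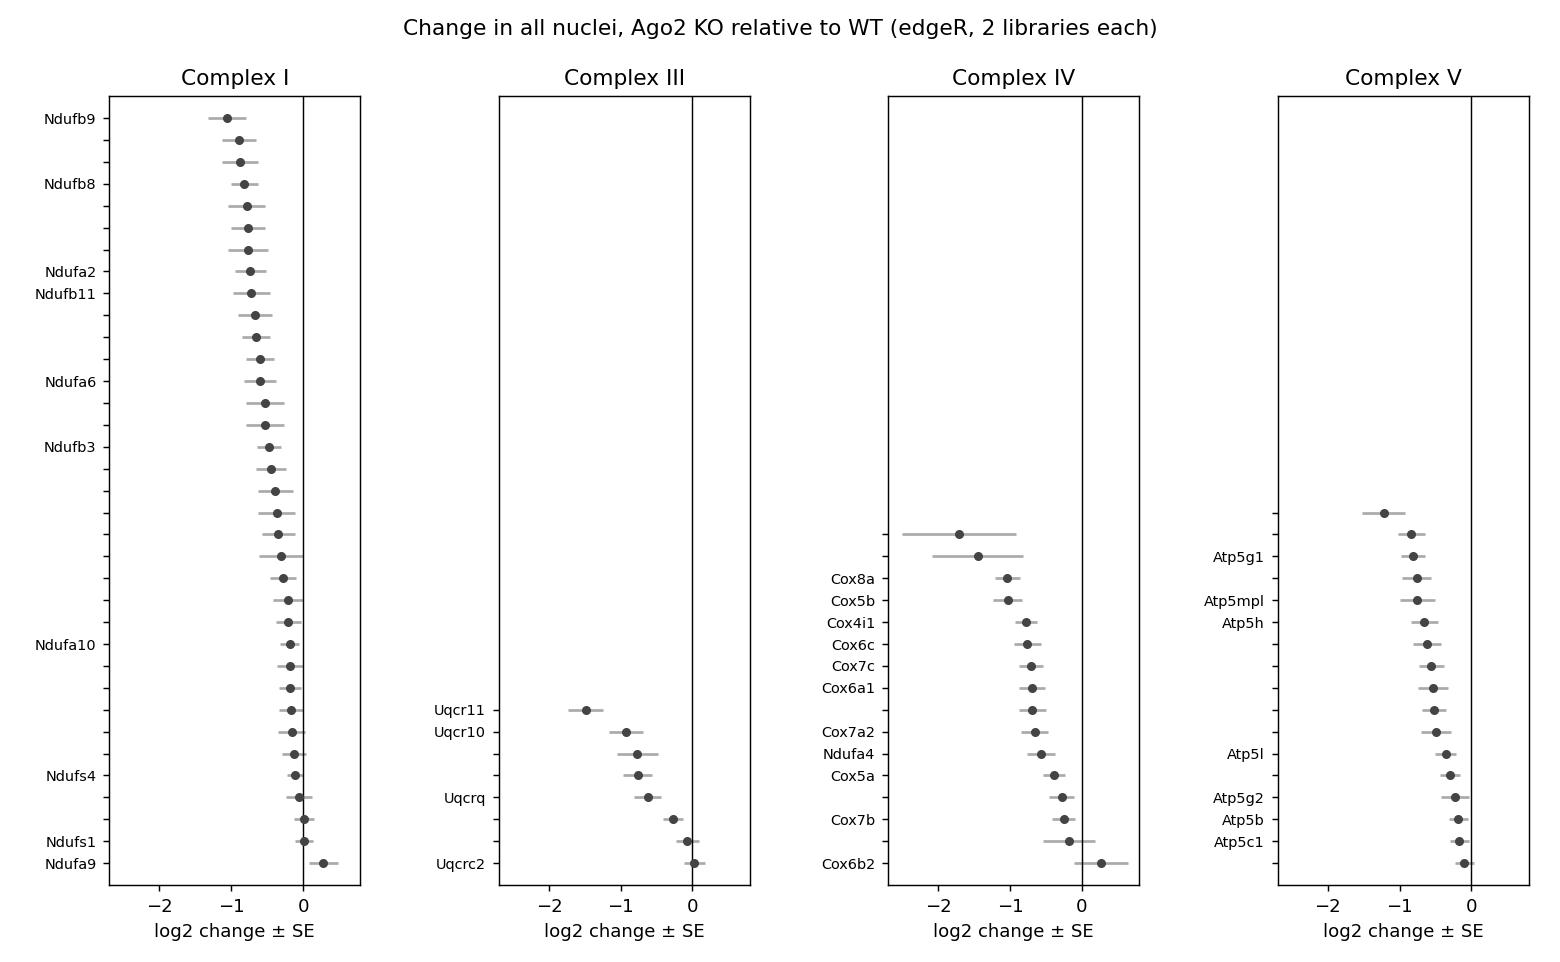
Log2 change in all nuclei, KO-labelled relative to WT libraries, for each of the 76 tested members (points), by complex and sorted by value. Bars give the SE derived from the edgeR F statistic. Names are given for the members with the smallest p in any comparison and for those above 0.2. Most members lie between 0 and -1, and Ndufa9 at 0.28 and Cox6b2 at 0.26 lie farthest right of 0.

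Within complex III, Uqcrc1 and Uqcrc2 divided from the small subunits along the same line, but Uqcrfs1, grouped with the core as well, did not. The core proteins Uqcrc1 and Uqcrc2, which face the matrix, had log2 changes of -0.08 (SE 0.16) and 0.03 (SE 0.15), and their groups overlapped. Uqcrc2 was at 55.7 and 48.7 CPM in WT and at 60.5 and 47.5 in KO libraries. Uqcrfs1, the Rieske subunit, had 65 and 126 UMIs over all nuclei in WT and 35 and 32 in KO libraries. The kept UMIs of all genes were 10514602 and 25930206 in WT and 10197719 and 10368102 in KO libraries. The share of Uqcrfs1 was thus lower in both KO libraries than in both WT libraries. Uqcrfs1 was thinly counted, as in the unnamed cluster 12 at 66.9 and 51.5 CPM in WT and 18.7 and 0 in KO libraries, on 16 UMIs. In the unnamed cluster 6 its 2 UMIs were both in KO libraries. All 5 small subunits had lower levels in both KO libraries, with a median of -0.77. Uqcr11, one of the smallest, was at 29.8 and 19.1 CPM in WT and 7.75 and 9.74 in KO libraries (-1.49, SE 0.24, edgeR adjusted p = 0.282). Uqcr10 was at 16.2, 12.3, 6.47 and 8.58 CPM (-0.93, SE 0.23).

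Complex IV showed the lowest KO to WT ratio, and its nuclear members do not carry the catalytic metal centres but encase the mitochondrially encoded core. All 12 widely expressed members were lower in both KO libraries, with log2 changes from -1.04 to -0.25. Cox8a was at 80.3 and 60.0 CPM in WT and at 31.0 and 38.0 in KO libraries (-1.04, SE 0.17, unadjusted p = 0.000309, edgeR adjusted p = 0.282). Cox4i1, the common isoform of the subunit that takes part in regulation by ATP, was at 76.9 and 58.2 CPM in WT and 38.7 and 40.8 in KO libraries (-0.78, SE 0.15, edgeR adjusted p = 0.393). In each case the lower WT library stood well above the higher KO library. Cox5b, which binds zinc, was at 20.9, 15.7, 8.83 and 9.16 CPM (-1.03, SE 0.20). Cox7c was at 61.9, 48.2, 30.01 and 37.8 CPM (-0.71, SE 0.17).

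Complex V members all had negative log2 changes, 17 of 17, with a median of -0.54. The F1 head, where ATP is made, differed least: Atp5b, its catalytic beta subunit, was at 63.0 and 51.3 CPM in WT and 49.3 and 52.4 in KO libraries (-0.18, SE 0.13), with overlapping groups. The small shaft subunits had more negative values. Atp5e, the epsilon subunit, was at 20.2, 12.1, 5.49 and 8.30 CPM (-1.22, SE 0.30, edgeR adjusted p = 0.447). The Atp5g genes all encode the same mature c subunit of the rotor ring. Atp5g1 was at 25.1 and 21.5 CPM in WT and 14.02 and 12.7 in KO libraries (-0.82, SE 0.17, adjusted p = 0.393 by edgeR). Atp5g3 had a log2 change of -0.56 (SE 0.18) and Atp5g2 one of -0.23 (SE 0.20), the last with overlapping groups. All 5 accessory subunits of the membrane part, such as Atp5k at 19.7, 17.0, 9.81 and 11.0 CPM, were lower in both KO libraries.

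The promoters of 64 of the 80 members had an entry in the RefSeq table for GRCm38.p6. Cox8a, Uqcr11 and Ndufs4 are shown here: Cox8a and Uqcr11, the members with the smallest p in all nuclei, and Ndufs4, a well-counted member whose groups overlapped. Each is 300 bases, from 250 before to 50 after the annotated start, on the strand of the gene and 5′ to 3′. Capitals mark matches, on either strand, to 3 motifs of factors known to act at such genes: CCGGAAG for the ETS family including GABP, GCGCA and GCGC with any single base between them for NRF1, and AAGATGG for YY1. The matches in these windows do not overlap. The windows are chr19:7217567-7217866 (minus strand), chr10:80406772-80407071 (minus strand) and chr13:114388045-114388344 (minus strand).
Cox8a: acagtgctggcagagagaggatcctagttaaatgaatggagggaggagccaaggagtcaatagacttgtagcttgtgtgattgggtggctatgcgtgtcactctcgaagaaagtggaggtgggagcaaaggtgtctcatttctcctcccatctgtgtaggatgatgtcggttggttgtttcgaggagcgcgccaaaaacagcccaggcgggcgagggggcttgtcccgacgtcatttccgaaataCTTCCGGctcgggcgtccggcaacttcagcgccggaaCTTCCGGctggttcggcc
Uqcr11: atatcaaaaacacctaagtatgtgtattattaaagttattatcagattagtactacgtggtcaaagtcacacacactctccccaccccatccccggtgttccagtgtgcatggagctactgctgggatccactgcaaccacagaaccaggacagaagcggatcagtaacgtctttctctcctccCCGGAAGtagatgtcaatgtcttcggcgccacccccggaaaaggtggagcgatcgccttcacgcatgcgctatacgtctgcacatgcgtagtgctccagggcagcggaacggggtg
Ndufs4: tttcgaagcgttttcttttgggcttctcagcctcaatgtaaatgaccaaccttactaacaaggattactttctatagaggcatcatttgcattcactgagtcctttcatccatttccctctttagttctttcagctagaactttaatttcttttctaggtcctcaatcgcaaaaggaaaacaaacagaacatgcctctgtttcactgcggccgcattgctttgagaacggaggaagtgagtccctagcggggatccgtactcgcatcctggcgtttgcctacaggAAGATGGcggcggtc
Cox8a has 2 matches to the ETS motif, both on the opposite strand (CTTCCGG), Uqcr11 has 1 and Ndufs4 has 1 match to the YY1 motif.

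Across the family, 35 of the 64 members with an entry held at least 1 of the 3 motifs, beside 18% of all 32851 windows. The ETS motif was in 15 members (21.7% of the 69 member windows, 8.86% of all windows). The NRF1 motif was in 15 (23.2% against 4.6%) and the YY1 motif in 10 (14.5% against 6.34%). Among matched members tested in all nuclei, the ETS motif occurred in 13 of the 47 whose KO libraries both lay below both WT libraries and in 2 of the other 15. For NRF1 these numbers were 12 of 47 and 3 of 15, and for YY1 7 of 47 and 3 of 15. A match describes the letters of this window, not a bound site.

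Members with short genes had the most negative values, and those with long genes lay near 0. The rank correlation between annotated gene span and log2 change over the 76 members in all nuclei was 0.632 (Spearman's rho, across genes, which share libraries and are not independent). The 25 members spanning under 5 kb had a median log2 change of -0.72, and 24 of them were negative. For the 29 members of 5 to 10 kb the median was -0.54, for the 13 of 10 to 20 kb it was -0.18, and for the 9 of 20 kb and over it was -0.11. Cox8a spans 2464 bases on chromosome 19 (7215153 to 7217616), whereas Ndufs4 spans 100464 on chromosome 13 (114287795 to 114388258) and Ndufs1 33238 on chromosome 1 (63143596 to 63176833), all in GRCm38.

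All genes tested showed the same order with smaller values. Their medians were -0.22 under 5 kb, -0.10 at 5 to 10 kb, -0.04 at 10 to 20 kb and 0.03 at 20 kb and over. Ribosomal protein genes under 5 kb, 66 in number, had a median of -0.78, close to that of the respiratory chain genes of this size. The members are short as a group: the median span was 7187 bases for the 75 members with at least 100 UMIs, against 28399 for 15126 genes with as many UMIs. In nuclei, long genes yield many intronic reads from unspliced RNA. The intron setting of the counting is not known here, and the part of gene length in these values was not tested further.

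**Figure D3:**
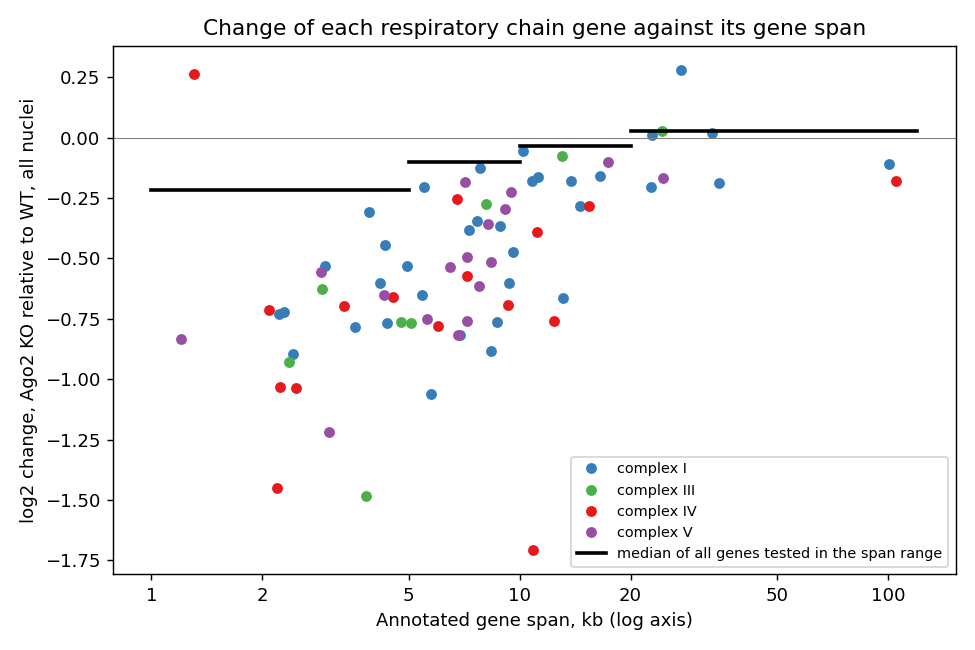
Log2 change in all nuclei (y axis) against annotated gene span in kb (x axis, log scale) for the 76 tested members, coloured by complex. Black lines give the median of all genes tested within 4 span ranges (under 5, 5 to 10, 10 to 20, and 20 kb and over), and the members under 10 kb lie mostly below them.

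The lower share was present within each of the 13 named classes, glia and vessel cells included. Across them the KO to WT ratio of the summed share ran from 0.522 to 0.882, and the groups did not overlap in 13 of 13. The 0.522 came from mural nuclei, where KO replicate 1 had 5 nuclei and 7 member UMIs. The classes share the same 4 libraries, so they do not count as separate repeats. Over all genes, between 48.3% and 51.7% of log2 changes were negative in the comparisons that follow.

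Glutamatergic nuclei had the KO to WT ratio of summed share nearest to 1 among the named classes (0.882). They held little RNA of the driver gene Slc17a6, at 18.8 and 11.8 CPM in WT and 21.9 and 21.2 in KO libraries. Their member share was 0.120% and 0.108% in WT and 0.106% and 0.0951% in KO libraries. Of 57 members tested, 44 were negative, the median was -0.25 and none was called, against 1 of 10430 genes called (0.00959%). An unadjusted p under 0.05 with KO lower was reached by 6, against 2.71% of all genes, and DESeq2 called none. Both KO libraries lay below both WT libraries for 24 of the 57, against 13.7% of all genes, and above them for 3, against 20% of all genes. Complex IV accounted for 10 of the 24, with a median of -0.56 over 13 tested, while the groups overlapped in the summed share of complexes I and III. Cox8a was at 47.2 and 36.8 CPM in WT and 20.4 and 32.4 in KO libraries (-0.67, SE 0.27, edgeR adjusted p = 0.829). Ndufs1 was at 51.7, 51.0, 73.7 and 54.9 CPM (0.27, SE 0.20), higher in both KO libraries.

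In the unnamed cluster 18, Slc17a6 was at 60.9 and 60.9 CPM in WT and 94.6 and 74.1 in KO libraries. Of its 73 tested members, 63 were negative (median -0.29), 36 had both KO libraries below both WT libraries (15.8% of all genes did), and 0 of 12518 genes were called (0%). At an unadjusted p under 0.05, 8 members were lower (2.06% of all genes), and DESeq2 called no member. Uqcr11 was at 15.4, 13.1, 4.67 and 5.73 CPM (-1.42, SE 0.36, unadjusted p = 0.00252, edgeR adjusted p = 1). In cluster 6, also unnamed and led by genes that include Tbr1 of deep-layer cortical neurons, 13 of 18 tested members were negative (median -0.22) and 7 lay lower in both KO libraries, against 13.7% of all genes. By edgeR 0 of 5318 genes were called there (0%), 2 members had an unadjusted p under 0.05 (2.41% of all genes were so and lower), and DESeq2 called none. Cox6a1 had the smallest p there (-2.38, SE 0.64, adjusted p = 0.801 by edgeR).

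GABAergic nuclei, which do not use VGLUT2, had 51 of 57 tested members negative with a median of -0.36. The share was 0.163% and 0.145% in WT and 0.122% and 0.122% in KO libraries. Separation with KO lower held for 31 members, against 15.3% of all genes, and 0 of 9477 genes were called (0%). An unadjusted p under 0.05 with lower values was reached by 7 members, against 3.31% of all genes, and DESeq2 called none. Cox8a was at 53.4 and 44.4 CPM in WT and 27.0 and 23.6 in KO libraries (-0.95, SE 0.24, edgeR adjusted p = 0.864). Ndufb3, an accessory subunit of complex I, was at 16.8, 17.7, 6.10 and 8.17 CPM (-1.31, SE 0.40).

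Cerebellar granule nuclei, the largest class with 3169 nuclei, differed by more than the spread inside either group. The member share was 0.216% and 0.202% in WT and 0.153% and 0.158% in KO libraries. Of 64 members tested, 62 were negative (median -0.48), and 40 had both KO libraries below both WT libraries, against 19.1% of all genes. No member passed the adjusted threshold, which 1 of 9729 genes did (0.0103%), and DESeq2 called none either. An unadjusted p under 0.05 was reached by 20, all lower in KO, against 3.64% of all genes. Cox8a was at 97.5 and 96.1 CPM in WT and 35.1 and 50.8 in KO libraries (-1.18, SE 0.21, edgeR adjusted p = 0.231). Without the filter on low counts it passed with an adjusted p of 9.02e-05, and without WT replicate 1 with 0.00915 by edgeR. Cox4i1 was at 94.3, 85.6, 42.2 and 52.6 CPM (-0.92, SE 0.19, adjusted p = 0.255 by edgeR).

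Immature neurons, with Slc17a6 at 65.9, 48.2, 48.6 and 37.3 CPM, had fewer member counts. Their share was 0.191% and 0.183% in WT and 0.133% and 0.134% in KO libraries. Of 43 members tested, 35 were negative (median -0.31), 23 were separated with KO lower against 16.9% of all genes, and none was called by edgeR (1 of 7658 genes, 0.0131%) or DESeq2. Lower values with an unadjusted p under 0.05 were found for 9 members, against 3.53% of all genes. Cox4i1 was at 108 and 70.2 CPM in WT and 28.6 and 41.4 in KO libraries (-1.34, SE 0.31, edgeR adjusted p = 0.280). Cox6a1, which joins complex IV into dimers, was at 58.5, 35.1, 8.58 and 24.9 CPM (-1.52, SE 0.46).

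**Figure D4:**
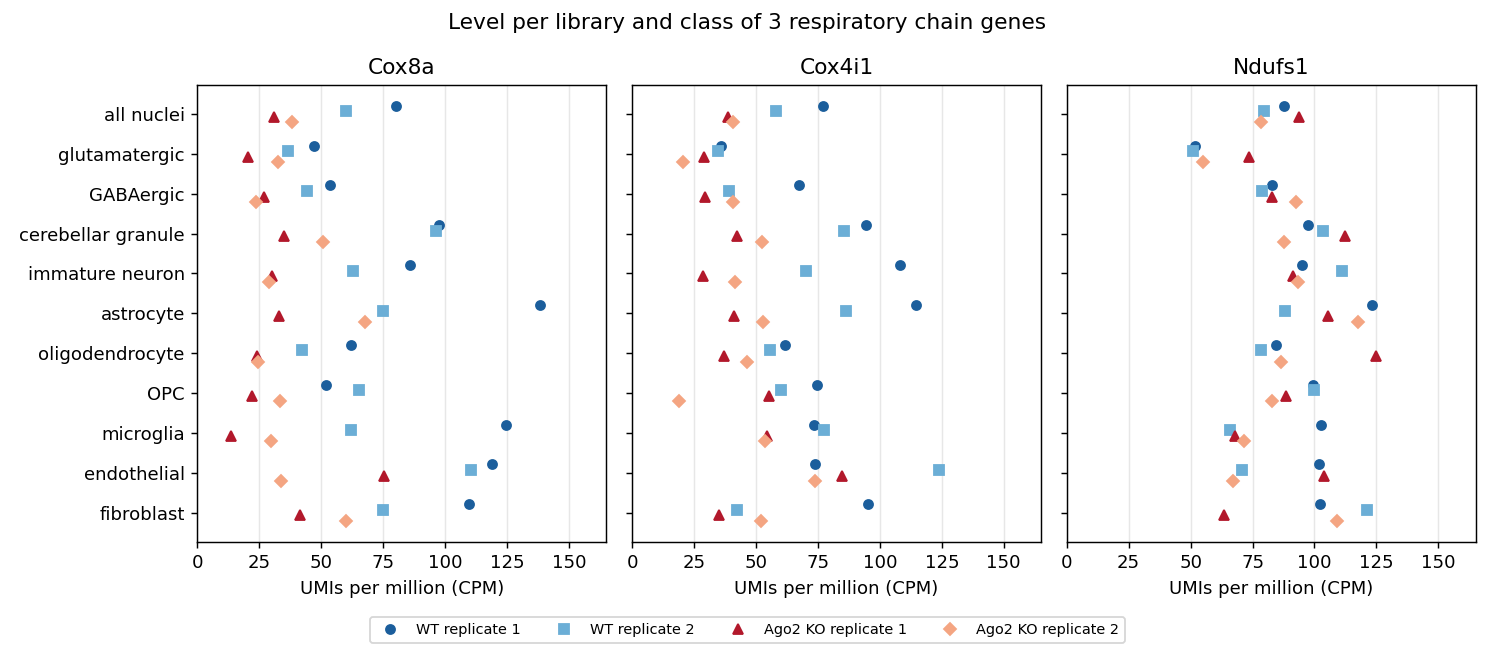
Level in CPM (x axis) of Cox8a, Cox4i1 and Ndufs1 in all nuclei and in 10 named classes (y axis), with 1 point per library. Cox8a is lower in both KO-labelled libraries in every row shown, while the groups of Ndufs1 overlap in most rows.

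Astrocytes had a median log2 change of -0.62, which ran from -0.40 (mitochondrial maximum of 1%) to -1.01 (without WT replicate 2) over the alternatives. Their share was 0.299% and 0.212% in WT and 0.154% and 0.190% in KO libraries. Of 55 members tested, 45 were negative and 33 were separated with KO lower, against 18% of all genes. None was called by edgeR, beside 9 of 8436 genes (0.107%), or by DESeq2, and 22 had an unadjusted p under 0.05 with lower values, against 4.27% of all genes. With WT replicate 2 left out, the only WT library is WT replicate 1, which was high in mitochondrial RNA. Ndufb8 was at 31.1 and 33.5 CPM in WT and 6.31 and 6.61 in KO libraries (-2.32, SE 0.45, edgeR adjusted p = 0.112), on 71 UMIs. Ndufb9 was at 49.8, 27.4, 3.15 and 9.92 CPM (-2.52, SE 0.55, edgeR adjusted p = 0.188). Mitochondrially encoded RNA was also lower in both KO libraries here, at 1.64% and 0.561% in WT and 0.384% and 0.530% in KO.

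Oligodendrocyte precursors (OPC) had few tested members but a clear set in complex IV. Of 21 members tested, 17 were negative (median -0.47) and 13 were separated with KO lower, against 17.8% of all genes. All 7 tested members of complex IV were among the 13, with a median of -1.04. Cox8a was at 52.0 and 65.4 CPM in WT and 22.1 and 33.2 in KO libraries (-1.10, SE 0.37, edgeR adjusted p = 0.384). No member was called by edgeR, beside 20 of 6211 genes (0.322%), or by DESeq2, and 6 had an unadjusted p under 0.05 with lower values, against 3.46% of all genes. Among those 20 were 3 mitochondrially encoded subunits of the same complex. By edgeR, mt-Co1 fell by 1.51 (SE 0.29, adjusted p = 0.0185), mt-Co2 by 1.32 (SE 0.28, adjusted p = 0.0442) and mt-Co3 by 1.43 (SE 0.31, adjusted p = 0.0448) on the log2 scale. WT replicate 1 carried most of this difference, for mt-Co1 at 1110 CPM against 382 in WT replicate 2 and 279 and 230 in KO libraries.

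Oligodendrocytes divided by complex. Of 35 members tested, 24 were negative (median -0.30) and 11 were separated with KO lower, against 16.0% of all genes. All 10 tested members of complex IV were negative, whereas 4 of 11 of complex I were. Cox8a was at 61.9, 42.3, 23.9 and 24.4 CPM (-1.08, SE 0.38, edgeR adjusted p = 0.772). Atp5b ran the other way, at 39.2 and 27.5 CPM in WT and 50.5 and 57.7 in KO libraries (0.73, SE 0.34, edgeR adjusted p = 0.848). None was called by edgeR, beside 6 of 6967 genes (0.0861%), or by DESeq2, and 3 had an unadjusted p under 0.05 with lower values, against 3.37% of all genes. The sign of this class median changed under other settings: it was 0.23 with no mitochondrial maximum and 0.04 at Leiden resolution 2, and the cause was not tested.

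Vessel, immune and meningeal classes were thinly counted. In endothelial nuclei 14 of 17 tested members were negative (median -0.50), 7 were separated with KO lower against 15.6% of all genes, and 0 of 3839 genes were called by edgeR (0%). At an unadjusted p under 0.05, 3 members were lower, against 2.08% of all genes. Cox8a was at 119 and 110 CPM in WT and 75.5 and 33.6 in KO libraries (-1.14, SE 0.47). In fibroblasts, which line the meninges and vessels, 24 of 31 were negative (median -0.11), 8 were separated with KO lower against 17.7% of all genes, and 0 of 6928 genes were called by edgeR (0%). At an unadjusted p under 0.05, 1 member was lower, against 2.55% of all genes. Microglia had 3 members tested, Ndufs4, Cox4i1 and Ndufs1, all negative, of which Cox4i1 was separated (16.5% of all genes were) and none was called (1 of 3634 genes, 0.0275%). None of the 3 had an unadjusted p under 0.05 with lower values, as 2.5% of all genes did, and DESeq2 called no member in these 3 classes.

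Cox8a was the most regular member over classes. It was tested in 9 of the 10 classes with at least 20 nuclei in each library, and in all 9 both KO libraries lay below both WT libraries, with log2 changes from -1.30 to -0.67. Atp5g1 was separated in 7 of 7 classes (median -1.02). Cox4i1 was negative in 10 of 10 and separated in 7. Among 44 members tested in at least 5 classes, 19 were negative in each class where they were tested, and 2 were separated with KO lower in none. Such counts across classes are not given for all genes. The classes share the same 4 libraries, so a gene can repeat its sign over classes for that reason alone. Ndufv2 was one of the members separated with KO lower in no class, with a median of 0.00 over 8 classes. Ndufs1 was negative in 6 of 10 classes, and it was separated in 2 classes with KO lower and in 2 with KO higher.

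No member was found to differ in genotype effect between classes. In a model with the library as a block, 0 of 66 members passed for GABAergic against glutamatergic nuclei, 0 of 70 for astrocytes and 0 of 57 for OPCs. For the same 3 pairs, 29 of 10950, 15 of 11406 and 7 of 10880 genes passed. Ndufb9 came closest, between astrocytes and glutamatergic nuclei, with an unadjusted p of 0.000259 and an edgeR adjusted p of 0.0963. A p that misses the threshold does not show that the classes respond alike.

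RNA of other cell types moved with genotype in some classes too. The summed level of 10 oligodendrocyte markers in glutamatergic nuclei was 391 and 368 CPM in WT and 228 and 232 in KO libraries. In cerebellar granule nuclei it was 766 and 740 against 343 and 375. In astrocytes it was 4842 and 1574 against 438 and 1271, and in GABAergic nuclei 528 and 375 against 186 and 215, so KO was lower in both libraries in these classes as well. Summed levels of 10 astrocyte markers overlapped in both classes, at 657, 528, 545 and 541 CPM in glutamatergic and 1466, 1344, 1498 and 1402 in granule nuclei. The part of such RNA in the lower levels of the respiratory chain genes was not tested.

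The nuclear-encoded share was higher in barcodes with more mitochondrially encoded RNA in every library. Unlike the shares above, the values of this paragraph are percentages of the UMIs left once mitochondrially encoded ones were taken out. For barcodes with under 0.25% mitochondrial UMIs it was 0.159% and 0.149% in WT and 0.133% and 0.127% in KO libraries. At 2% to 5% it was 0.382% and 0.401% in WT and 0.240% and 0.254% in KO, and at 5% and over, among barcodes left out of the other results, 0.637% and 0.680% in WT and 0.477% and 0.554% in KO. Over all barcodes, with the classes pooled, both KO libraries lay below both WT libraries in each of the 6 ranges. The part of mitochondrial RNA in the lower share was not tested beyond these values. Within cerebellar granule nuclei under 0.25% the shares were 0.201% and 0.199% in WT and 0.149% and 0.155% in KO libraries, and in glutamatergic nuclei 0.104%, 0.106%, 0.102% and 0.0911%. At 0.5% to 1% granule nuclei stayed apart, at 0.2152% and 0.2044% in WT and 0.1716% and 0.1644% in KO libraries. Astrocytes overlapped in that range, at 0.2591% and 0.1975% in WT and 0.1456% and 0.2169% in KO libraries. Glutamatergic nuclei there were at 0.1432% and 0.1455% in WT and 0.1546% in KO replicate 1, with no value for KO replicate 2.

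The mitochondrially encoded partners gave no called gene over all nuclei. Of the 13, 12 had negative log2 changes with a median of -0.72, and 1, mt-Nd6, had both KO libraries below both WT libraries. For complex IV, mt-Co1 was at 1017 and 368 CPM in WT and 426 and 403 in KO libraries (-0.74, SE 0.36, edgeR adjusted p = 0.931). Log2 changes of mt-Co2 and mt-Co3 were -0.70 (SE 0.38) and -0.76 (SE 0.37). In all 3, WT replicate 2 lay below both KO libraries, so the negative values rest on WT replicate 1. For Cox8a and Cox4i1, in contrast, both WT libraries were higher than both KO libraries.

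A low-depth cluster was rich in respiratory chain RNA. Cluster 12, with 291 nuclei and a median of 711 UMIs, made up 1.88% of nuclei and 0.549% of UMIs but 3.58% of the members' UMIs. The members were 1.06% of its RNA and mitochondrially encoded genes 2.47%. Its leading genes mixed Pcp2 of Purkinje neurons, the myelin gene Mbp and the astrocyte enzyme Aldoc with Uqcr11, Uqcr10 and Atp5e, so it was given no name. It held 110 and 111 nuclei in WT and 61 and 9 in KO libraries. Even there the member share was 1.07% and 1.21% in WT and 0.759% and 0.619% in KO libraries. With clusters 12 and 13, both of low depth, left out, the summed share of all nuclei was 0.185% and 0.158% in WT and 0.137% and 0.136% in KO, and the member median was -0.48. Of 75 members then tested, none was called by edgeR (0 of 16931 genes, 0%). Both KO libraries lay below both WT libraries for 56, against 14.2% of all genes. DESeq2 called 2 members, and the share of all genes it called is not given here.

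Cluster 13, the second low-depth group, led by Rgs5, Prox1 and Sparc, was the one comparison of the groups in which edgeR, at the settings used throughout, called a member. Cox8a was at 125 and 153 CPM in WT and 51.4 and 25.0 in KO libraries, on 84 UMIs, and fell by 1.83 on the log2 scale (SE 0.42, edgeR adjusted p = 0.0241). It was 1 of 19 members tested there, beside 24 of 4563 genes (0.526%). Of the 19, 14 were negative (median -0.46), 9 had both KO libraries below both WT libraries (17.4% of all genes did), and 6 were lower at an unadjusted p under 0.05 (3.7% of all genes). The call was lost with DESeq2 (adjusted p = 1), without the filter on low counts (0.844 by edgeR), with a replicate block (0.171 by edgeR), and when WT replicate 2, KO replicate 1 or KO replicate 2 was left out (edgeR adjusted p from 0.184 to 0.85).

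Class levels differed between members. Over the 76 members with at least 50 UMIs, the highest mean level among 13 named classes was in endothelial nuclei for 41, choroid plexus for 15 and macrophages for 11. The lowest was in glutamatergic nuclei for 24 and in macrophages for 19, so macrophages were at either end for different members. Macrophages were thinly counted, and 1 UMI in KO replicate 1 amounted to 78.9 CPM there. Ranks of this class can therefore rest on very few UMIs. Endothelial nuclei had a member share of 0.358%, 0.339%, 0.332% and 0.207% in the order WT 1, WT 2, KO 1 and KO 2, and mitochondrially encoded shares of 1.82%, 2.62%, 0.853% and 2.38%. Glutamatergic nuclei had the lowest member share of the named neuron classes in each library. Cox4i1, for example, averaged 89.1 CPM in endothelial and 30.04 in glutamatergic nuclei over the 4 libraries.

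Isoforms with a restricted pattern were rare in these nuclei. Ndufa4l2, a relative of Ndufa4 known from pericytes and from hypoxia, was highest in mural nuclei, at 27.9 and 96.5 CPM in WT and 99.6 and 61.8 in KO libraries, on 12 UMIs. Its median over the 13 classes was 1.49 CPM, and endothelial nuclei came next with 34.0, 22.1, 18.9 and 6.73. Cox4i2, the oxygen-sensitive isoform of Cox4, was at 83.6 and 32.2 CPM in mural nuclei of WT, on 6 and 2 UMIs, and had 0 UMIs in mural nuclei of either KO library. Mural nuclei numbered 26 and 23 in WT and 5 and 23 in KO libraries, so no genotype test was made. Over all nuclei Ndufa4l2 had 43, 40, 5 and 15 UMIs (-1.45, SE 0.63, edgeR adjusted p = 0.855) and Cox4i2 26, 25, 1 and 9 (-1.71, SE 0.79, edgeR adjusted p = 0.906). The number of mural nuclei moved with these sums in KO replicate 1, and its part was not tested.

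Other isoforms were at or near the limit of detection. Cox6b2, known from testis, was highest in choroid plexus at 15.6, 17.9, 21.3 and 19.9 CPM on 9 UMIs. The heart and muscle isoforms Cox6a2 and Cox7a1 had 19 and 29 UMIs over all nuclei, Cox8b had 1 and Cox8c had 0 (in each library at most the 3 UMIs that a count of 0 allows). Cox7b2 was at 3.33 and 6.06 CPM in WT and 4.90 and 3.86 in KO libraries, with overlapping groups (-0.18, SE 0.36). The largest ratios of the top class to the class median after these were 5.16 for Ndufa2 in mural nuclei, 4.21 for Uqcrb and 4.10 for Atp5h, both in endothelial nuclei. In mural nuclei 1 UMI of KO replicate 1 amounted to 99.6 CPM, so that ratio can rest on few UMIs.

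Neighbouring parts of the pathway were not uniformly lower. Over all nuclei none of the genes of the following lists was called. Complex II, the succinate dehydrogenase that is wholly nuclear-encoded, had 2 of 4 genes negative with a median of -0.01, as for Sdhb at 51.4, 33.8, 47.4 and 35.6 CPM (-0.05, SE 0.21). Of 13 enzymes of the TCA cycle, 6 were negative (median 0.01) and none was separated with KO lower. Regulators of mitochondrial gene expression such as Tfam and Ppara had 7 of 19 negative (median 0.04), with 1 having both KO libraries below both WT libraries and 6 having both above (14.6% and 18.5% of all genes tested). Tfam, which packages mitochondrial DNA, was at 6.37 and 7.06 CPM in WT and 9.51 and 8.01 in KO libraries (0.35, SE 0.23).

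Genes of electron carriers and of the mitochondrial ribosome lay in between. Over all genes tested, 14.6% were separated with KO lower and 18.5% with KO higher, the shares to set beside the counts of this paragraph. All 8 genes for cytochrome c, cytochrome c1, phosphate and adenine nucleotide carriers and porins were negative (median -0.22) and 4 were separated with KO lower. Cycs, cytochrome c itself, was at 9.04 and 7.60 CPM in WT and 4.51 and 4.63 in KO libraries (-0.88, SE 0.24, edgeR adjusted p = 0.509). Of 77 mitochondrial ribosome genes tested, 58 were negative (median -0.16), and of 42 assembly factors 25 were (median -0.06). Of the ribosome genes, 22 were separated with KO lower and 5 with KO higher. For the assembly factors these numbers were 14 and 8. Cytosolic ribosomal protein genes were the list most like the respiratory chain: 81 of 84 were negative, 73 were separated with KO lower, and the median was -0.76. The 8 nuclear-retained or long-gene transcripts taken as a reference, such as Dlg2 and Rbfox1, had a median of -0.13, with 7 negative and 4 separated lower.

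Some members share sequence or position with other genes. In the GRCm38 annotation, 37 of the 80 overlap another annotated gene, 12 on the same strand and 29 on the other, and the strand used in counting is not known here. Cox4i1, Ndufb9, Ndufs1 and Uqcrc2 are among these, whereas Cox8a, Uqcr11, Cox5b and Ndufs4 overlap none. Reads of members with processed pseudogene copies may have been split or dropped in counting, so absolute levels of single members are uncertain.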

How the data were processed

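Single-nucleus RNA of 2 WT and 2 KO-labelled libraries was deposited by the authors as whole-number UMI counts per gene and barcode. Per the submitters' processing notes, Cell Ranger 4.0.0, Seurat 3.2.3 and GRCm38 were used; the intron setting, annotation release and strand are not given in the sources used here. Barcodes under 5% mitochondrial UMIs were kept, the highest Scrublet scores were removed (0.8% per 1000 barcodes, since the automatic threshold marked 1 to 6 per library), and 15511 nuclei entered scanpy 1.11.5 with 2000 variable genes, 29 of them members, 30 components and Leiden resolution 1 (igraph 0.11.9), giving 27 clusters.

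Counts were summed per library and class where each library had at least 20 nuclei. All genes passing filterByExpr were fitted with the edgeR 4.0.16 quasi-likelihood test (R 4.3.3) with TMM scaling and Benjamini-Hochberg adjustment over all genes tested, at a threshold of 0.05. Each SE given with a log2 change was derived as the absolute change divided by the square root of the edgeR F statistic. The effect was compared between classes in a model with the library as a block. The pipeline was tested on simulated data. DESeq2 1.42.0, library totals, no low-count filter, other nucleus filters and clusterings, a replicate block and leaving out each library were the alternatives. Leaving out the low-depth clusters was added after seeing the data. The members and lists were chosen with earlier results of these data known. Members named were those called and the 5 with the smallest p in each comparison, of which examples are given, and further members were named by role after their values were seen. Deviations of same-numbered libraries had correlations across genes of -0.091 over all nuclei and 0.079 in glutamatergic nuclei. Such values cannot show whether these libraries were handled together, and the numbers were not taken as pairs. Gene spans came from the GRCm38 annotation, and promoters from RefSeq, GRCm38.p6.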

Additional observations from a re-analysis of the deposited data

How the results depend on the processing

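Of 755 refits of single members, 723 kept the direction and the side of the threshold, 25 became called, 6 were no longer called and 1 turned in sign (Ndufs1 in microglia without WT replicate 1, 0.071; its values with 1 library left out ran from -0.596 to 0.071). Where a refitted member had been named for its smallest p in these same data, a kept direction was largely set by that choice. A member not called at the main settings kept its side of the threshold by staying uncalled. Of 164 counts of called members, 17 moved. In all nuclei 3 members were called with DESeq2. Without the low-count filter 4 were called in cerebellar granule nuclei and 9 in astrocytes. The share of all genes called without this filter is not given here, so these counts describe the members only. Counts of called members also moved in some comparisons when 1 library was left out, which leaves 1 library in a group. Leaving 1 library out also moved the median log2 change of the members, which ran from -0.368 to -0.213 in glutamatergic, -0.448 to -0.335 in GABAergic and -0.494 to -0.385 in granule nuclei, and from -1.008 to -0.463 in astrocytes and -0.64 to -0.154 in oligodendrocytes. Without the low-count filter the median was -0.344 in glutamatergic and -0.481 in GABAergic nuclei. In GABAergic nuclei it was -0.429 with doublets kept and -0.273 with the members and ribosomal genes left out of clustering. In oligodendrocytes it turned positive with no mitochondrial maximum (0.23) and at Leiden resolution 2 (0.038); the cause was not tested. With no mitochondrial maximum the summed share over all nuclei differed by -0.0675 percentage points (KO minus WT).

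With the replicate number as a block, 1 member was called in granule nuclei (Cox8a, adjusted p = 0.0213 by edgeR) and 0 in the sums over all, glutamatergic, GABAergic, astrocyte, oligodendrocyte and OPC nuclei. The share of all genes called with this block is not given here. The median over all nuclei was -0.545. The correlation of same-numbered deviations across genes was -0.091 over all nuclei and 0.079 in glutamatergic nuclei, and the numbers were not taken as pairs. With 2 libraries a group, such a value cannot show whether same-numbered libraries were handled together. With 2 libraries a group, leaving 1 out assumes that the lone library varies like the other group.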
